A study of Mus musculus with 24 samples.

Results

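The rodent TaqMan cards carry assays named for rat miRNAs (prefix rno) beside assays named for mouse miRNAs (prefix mmu). All 67 assays whose name starts with rno were taken, of 584 miRNA assays on the cards, and they were read on mouse RNA only. For 40 of them the cards also hold an mmu assay of the same hairpin and arm, 31 under the same name and 9 under another form of it, and 27 were left without a partner. For 3 of these 27 (rno-miR-463, rno-miR-466b and rno-miR-466c) the cards hold mmu assays of a like name, but the arm could not be matched by name. The RNA came from 4 groups of mouse cells with 3 replicates each, and no group was treated. CT-BM was primary mouse bone marrow. The design text describes a flush of femur and tibia, whereas the growth protocol describes a suspension culture and the series title speaks of stem cells, so the state of these cells is not known. The cell lines, all collected at passage 3, were L-1210 from a lymphocytic leukaemia, M1 from a leukaemia of the myeloid lineage, and PYS from a teratocarcinoma. Nothing in the labels says that replicates came from separate animals or cultures, so p-values measure only the spread between these replicates, which may be technical. Where an assay was not detected in a group, a fixed Ct stood in. A p-value against such a group does not measure the spread of the assay there.

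A miRNA is cut from a hairpin precursor. Each hairpin has a 5p and a 3p arm. The arm that is usually loaded into Argonaute is the guide strand, and the other, often written with an asterisk, is the passenger strand. The seed, the bases from position 2 to 8 counted from 1 at the 5′ end, does most of the pairing with target messenger RNAs. Many miRNAs are shared by rat and mouse, but the ends and single bases of the mature form can differ between the species. A stem-loop TaqMan assay primes reverse transcription from the 3′ end of the mature miRNA.

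The mouse miRNAs behind the main results are given from RefSeq (GRCm38.p6) with the seed in capitals. Of 52 members with a named mouse arm, 47 matched a mature sequence in that table. The sequences on which the assays were designed were not given in the sources used here, so the letters describe the mouse miRNA and not the rat assay. The first set holds 5 hairpin arms whose rno and mmu assays were both detected and which carry the comparison within pairs, with near relatives of 3 of them.
mmu-miR-20b-5p: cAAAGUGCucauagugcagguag
mmu-miR-20a-5p: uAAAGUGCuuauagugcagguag
mmu-miR-17-5p: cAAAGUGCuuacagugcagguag
mmu-miR-106a-5p: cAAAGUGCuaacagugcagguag
mmu-miR-190b-5p: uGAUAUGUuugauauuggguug
mmu-miR-190a-5p: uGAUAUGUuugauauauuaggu
mmu-miR-339-3p: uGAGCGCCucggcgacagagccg
mmu-miR-224-5p: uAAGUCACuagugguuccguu
mmu-miR-7a-1-3p: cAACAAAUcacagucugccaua
mmu-miR-7a-2-3p: cAACAAGUcccagucugccaca

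The miR-20b arm lies at chrX:52742159-52742181 on the minus strand, beside miR-106a at chrX:52742541-52742563, while miR-20a and miR-17 lie at chr14:115044183-115044205 and chr14:115043684-115043706 on the plus strand. All 4 share 1 seed, and miR-20b differs from each of the others at 2 bases. Against miR-20a these are C1U and C10U, against miR-17 C10U and U12C, and against miR-106a C10A and U12C, with the miR-20b base first. The miR-190b arm, at chr3:90070030-90070051, shares its seed with miR-190a at chr9:67236700-67236721 and differs from it at 7 bases, U16A, G17U, G18U, G19A, U20G, U21G and G22U, all in the 3′ end. Which of the 2 mouse hairpins the miR-7a* assays name was not stated. Their 3p arms differ by A7G, A10C and U21C.

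The second set holds arms that were read by the assay of 1 name, or in different groups by the assays of both names. The miR-351 arm has the seed of miR-125b, a relative outside its own cluster.
mmu-miR-207: gCUUCUCCuggcucuccucccuc
mmu-miR-351-5p: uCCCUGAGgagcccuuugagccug
mmu-miR-125b-5p: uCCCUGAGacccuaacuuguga
mmu-miR-345-3p: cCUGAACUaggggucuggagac
mmu-miR-28a-3p: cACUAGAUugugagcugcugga
mmu-miR-450a-5p: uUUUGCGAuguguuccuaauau
mmu-miR-489-3p: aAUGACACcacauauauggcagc
mmu-miR-17-3p: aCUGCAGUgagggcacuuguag
mmu-miR-20a-3p: aCUGCAUUacgagcacuuaaag
mmu-miR-29b-1-5p: gCUGGUUUcauauggugguuua
mmu-miR-135a-1-3p: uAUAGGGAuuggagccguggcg
mmu-miR-135a-2-3p: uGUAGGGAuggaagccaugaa

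Which of these 2 hairpins the miR-135a* assays name was not stated either, so that pair rests on the name alone. Over the 21 bases that both miR-135a arms span they differ by A2G, U10G, G12A, G17A, G20A and C21A, with the miR-135a-1 base first.

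Each well gives a threshold cycle (Ct), which falls by 1 when the template doubles. A Ct over 35 or no amplification counted as not detected, and no read depth applies. A level, on a log2 scale, is the mean Ct of the reference RNAs MammU6, snoRNA135 and snoRNA202 of that card and replicate, minus the Ct of the assay. On card A the mean Ct of these references in L-1210 differed from CT-BM by 0.740, -1.112 and -2.637 cycles. In M1 the differences were -2.170, -2.226 and -2.674, and in PYS 0.567, -1.860 and -1.533. Groups ordered by Ct thus need not stand in the same order by level. The table held 367 to 380 wells for each of 24 card runs, and the plant control ath-miR159a amplified in 0 of 24 wells. Of the marker lists, 5 of 5 blood miRNAs were detected in CT-BM, L-1210 and M1, and 4 in PYS. Of 11 embryonic stem cell miRNAs, 11 were detected in PYS, at mean Ct 15.7 to 24.5. In CT-BM, L-1210 and M1, 2, 4 and 3 of them were, at 28.0 or higher. All 6 epithelial miRNAs were detected in CT-BM and M1, 5 in L-1210 and 4 in PYS, where miR-141 and miR-203 were not. CT-BM alone had both erythroid miRNAs, all 4 mesenchymal ones and both neural ones in every replicate. The neural miRNAs went different ways, since miR-124 was read in CT-BM alone and miR-9 was weakest there. The mean Ct of miR-9 was 28.5 in CT-BM, 18.6 in L-1210, then 20.1 in M1 and 23.9 in PYS. In bulk RNA, fewer cells of a type and less RNA per cell cannot be told apart.

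Most rat-named assays did not amplify. Of 67, 27 (40.3%) were detected in every replicate with a well in at least 1 group, and 40 (59.7%) in no replicate of any group. Among 517 mouse-named assays, 351 (67.9%) and 164 (31.7%) stood in these classes. Detection in every replicate was reached by 19 rno assays (28.4%) in CT-BM, 21 (31.3%) in L-1210, then 16 (23.9%) in M1 and 21 (31.3%) in PYS, where mmu assays reached 54.5%, 50.5%, 46.6% and 56.1%. The assays are different miRNAs and not replicates, so these shares were not tested. The gap was present in each of the 4 groups. At Ct limits of 32 and 40 the rno counts were the same in every group except for 20 in PYS at 32.

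When they amplified, rat-named assays were read as tightly as mouse-named ones. Their Ct ran from 16.7 to 32.2, and 590 of 870 rno wells (67.8%) were undetermined. No assay of a replicate had both amplified and undetermined wells. In the 51 cases with 2 wells of 1 rno assay on a card, the median SD was 0.125 cycles and the highest 0.655. The median SD of the level between replicates was 0.23 for rno and 0.24 for mmu assays in CT-BM, 0.32 and 0.38 in L-1210, then 0.21 and 0.30 in M1 and 0.29 and 0.27 in PYS.

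**Figure D1:**
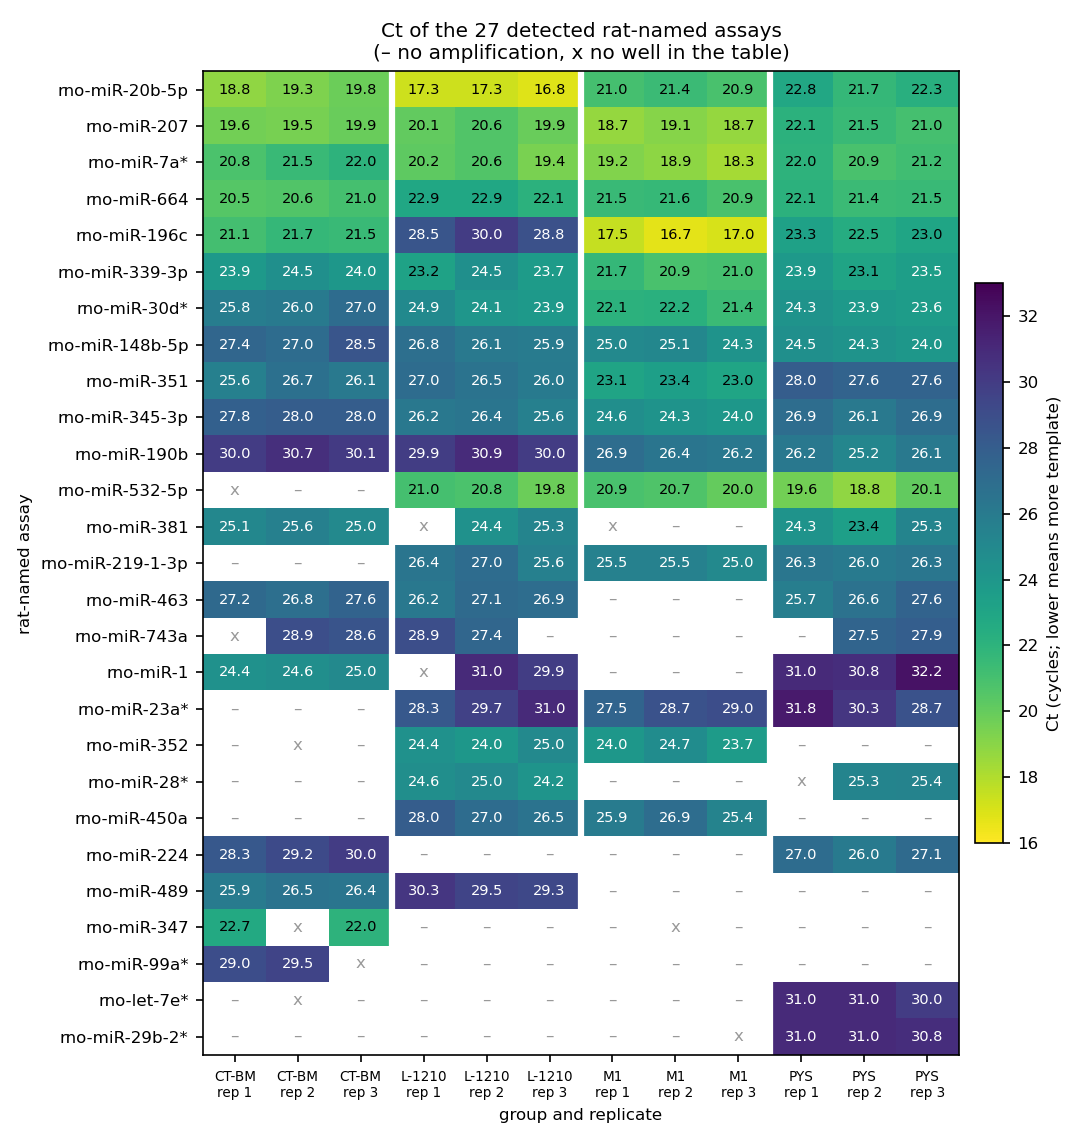
Ct in cycles of the 27 detected rat-named assays (rows) in each replicate of the 4 groups (columns), ordered by the number of groups with any amplification and then by mean Ct. A dash marks no amplification and x a replicate with no well in the table. The upper 11 rows are filled in all 12 replicates, and the lower rows show assays missing from whole groups. Only rno-miR-743a is also missing from single replicates, in L-1210 and PYS.

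The passenger strands, the imprinted locus and the germline cluster were mostly silent, as were rat-named assays in general (40.3% detected). Among 19 rno assays with an asterisk, 7 (36.8%) were detected, near the 20 of 48 (41.7%) without one. Among mmu assays with an asterisk, 74 of 110 (67.3%) were detected. The 7 rno assays were let-7e*, miR-23a*, miR-28*, miR-29b-2*, miR-30d*, miR-7a* and miR-99a*. Of 10 members from the imprinted Dlk1-Dio3 locus, a large miRNA cluster expressed from the maternal chromosome, only rno-miR-381 was detected (10.0%). Of 7 members from the X-linked cluster that is mainly active in testis, rno-miR-463 and rno-miR-743a were (28.6%). The rno-miR-463 assay had mean Ct 27.2 in CT-BM, 26.7 in L-1210 and 26.6 in PYS, and it was not detected in M1. Silence was often shared by the mmu partner. In the Dlk1-Dio3 locus the partners of miR-136*, miR-377, miR-382*, miR-409-5p, miR-493, miR-543 and miR-758 were silent in all groups, and that of miR-673 was not. In the X-linked cluster those of miR-742, miR-743b, miR-871 and miR-878 were silent, and that of miR-881 was read in PYS.

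The set of groups in which an rno assay was read varied widely. In all 4 groups, 11 were detected (16.4%), against 37.1% of mmu assays. These 11 were rno-miR-20b-5p, rno-miR-207, rno-miR-7a*, rno-miR-664, rno-miR-196c, rno-miR-339-3p, rno-miR-30d*, rno-miR-148b-5p, rno-miR-351, rno-miR-345-3p and rno-miR-190b. M1 lacked rno-miR-1, rno-miR-381 and rno-miR-463, which the other 3 groups had. CT-BM lacked rno-miR-219-1-3p, rno-miR-23a* and rno-miR-532-5p, which all 3 lines had. Both leukaemia lines and neither of the other groups had rno-miR-352 and rno-miR-450a.

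Assays read in a single group were few. In CT-BM, rno-miR-347 had Ct 22.7 and 22.0 in replicates 1 and 3, with no well for replicate 2. It was not detected in any replicate of the lines, although its CT-BM values are among the lower Ct of all members. The passenger strand rno-miR-99a* had Ct 29.0 and 29.5 in replicates 1 and 2 of CT-BM, with no well for replicate 3. In PYS, rno-let-7e* had Ct 31.0, 31.0 and 30.0 and rno-miR-29b-2* had 31.0, 31.0 and 30.8, which are among the highest Ct of all members. At a Ct limit of 32, rno-let-7e* lost its call against CT-BM.

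Setting each rno assay beside its mmu partner gave 13 pairs with both detected, 8 with the mmu assay alone, 2 with the rno assay alone and 17 with neither. Of the 13, 5 were read in exactly the same groups by both assays, namely miR-20b-5p, miR-190b, miR-339-3p, miR-7a* and miR-224. In the other 8 the assays were read in different groups. In 28 of the 40 pairs both assays sit on the same card, and in 12 on different cards, where the levels rest on each card's own reference RNAs.

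In 5 pairs the mouse-named assay was detected in every replicate of all 4 groups with a well, while the rat-named partner did not amplify at all. The mmu-miR-17* assay, for the passenger strand of miR-17, had Ct 24.6, 24.8 and 26.7 in CT-BM, 25.1, 24.3 and 24.1 in L-1210, then 22.6, 23.1 and 22.3 in M1 and 22.6, 22.4 and 22.1 in PYS. The mmu-miR-20a* assay, for an arm of the same cluster, had 25.4, 25.6 and 26.4 in CT-BM, 24.6, 24.4 and 23.9 in L-1210, then 22.8, 22.9 and 22.0 in M1 and 22.8, 22.1 and 22.1 in PYS. Both had lower Ct in M1 and PYS than in CT-BM and L-1210, without overlap. The mmu-miR-135a* assay had 25.4, 24.8 and 26.5 in CT-BM, 23.3, 22.4 and 23.1 in L-1210, then 25.4, 26.7 and 25.9 in M1 and 20.5, 20.7 and 20.7 in PYS, so that PYS had the lowest Ct.

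The same held for passenger strands of miR-29b and miR-24. The mmu-miR-29b* assay had Ct 25.8, 25.9 and 25.9 in CT-BM, 25.4, 25.1 and 25.4 in L-1210, then 24.0, 24.7 and 24.2 in M1 and 24.5, 24.5 and 25.1 in PYS. The mmu-miR-24-1* assay had 29.2, 29.2 and 30.9 in CT-BM, 28.5 and 29.4 in replicates 2 and 3 of L-1210, 27.0, 26.3 and 25.1 in M1 and 26.7, 28.9 and 27.2 in PYS. The partners rno-miR-17-3p, rno-miR-20a*, rno-miR-135a*, rno-miR-29b-1* and rno-miR-24-1* were not detected in any replicate.

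In the other 3 of these 8 pairs the mouse-named assay was read in part of the groups. The mmu-miR-673-5p assay, from the Dlk1-Dio3 locus, had Ct 22.7, 23.0 and 23.1 in CT-BM, 23.2 and 22.7 in replicates 1 and 3 of L-1210 and 21.7, 22.3 and 21.4 in M1, and was not detected in PYS. The mmu-miR-20b* assay was read in L-1210 alone, at 28.8, 28.6 and 28.4. The mmu-miR-881 assay was read in PYS alone, at 31.9 and 32.3 in replicates 2 and 3. Their partners rno-miR-673, rno-miR-20b-3p and rno-miR-881 were not detected.

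The reverse was seen for miR-207 and miR-743a. The rno-miR-207 assay had Ct 19.6, 19.5 and 19.9 in CT-BM, 20.1, 20.6 and 19.9 in L-1210, then 18.7, 19.1 and 18.7 in M1 and 22.1, 21.5 and 21.0 in PYS. The mmu-miR-207 assay on the same card did not amplify in any replicate. With rno-miR-20b-5p and rno-miR-7a*, rno-miR-207 was thus among the rat-named assays with the lowest Ct. The rno-miR-743a assay had Ct 28.9 and 28.6 in CT-BM, where replicate 1 had no well, 28.9 and 27.4 in replicates 1 and 2 of L-1210 and 27.5 and 27.9 in replicates 2 and 3 of PYS. It was not detected in replicate 3 of L-1210, replicate 1 of PYS or any replicate of M1, and it is the only member that amplified in some but not all replicates of a group. Its mmu partner was not detected in any group.

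**Figure D2:**
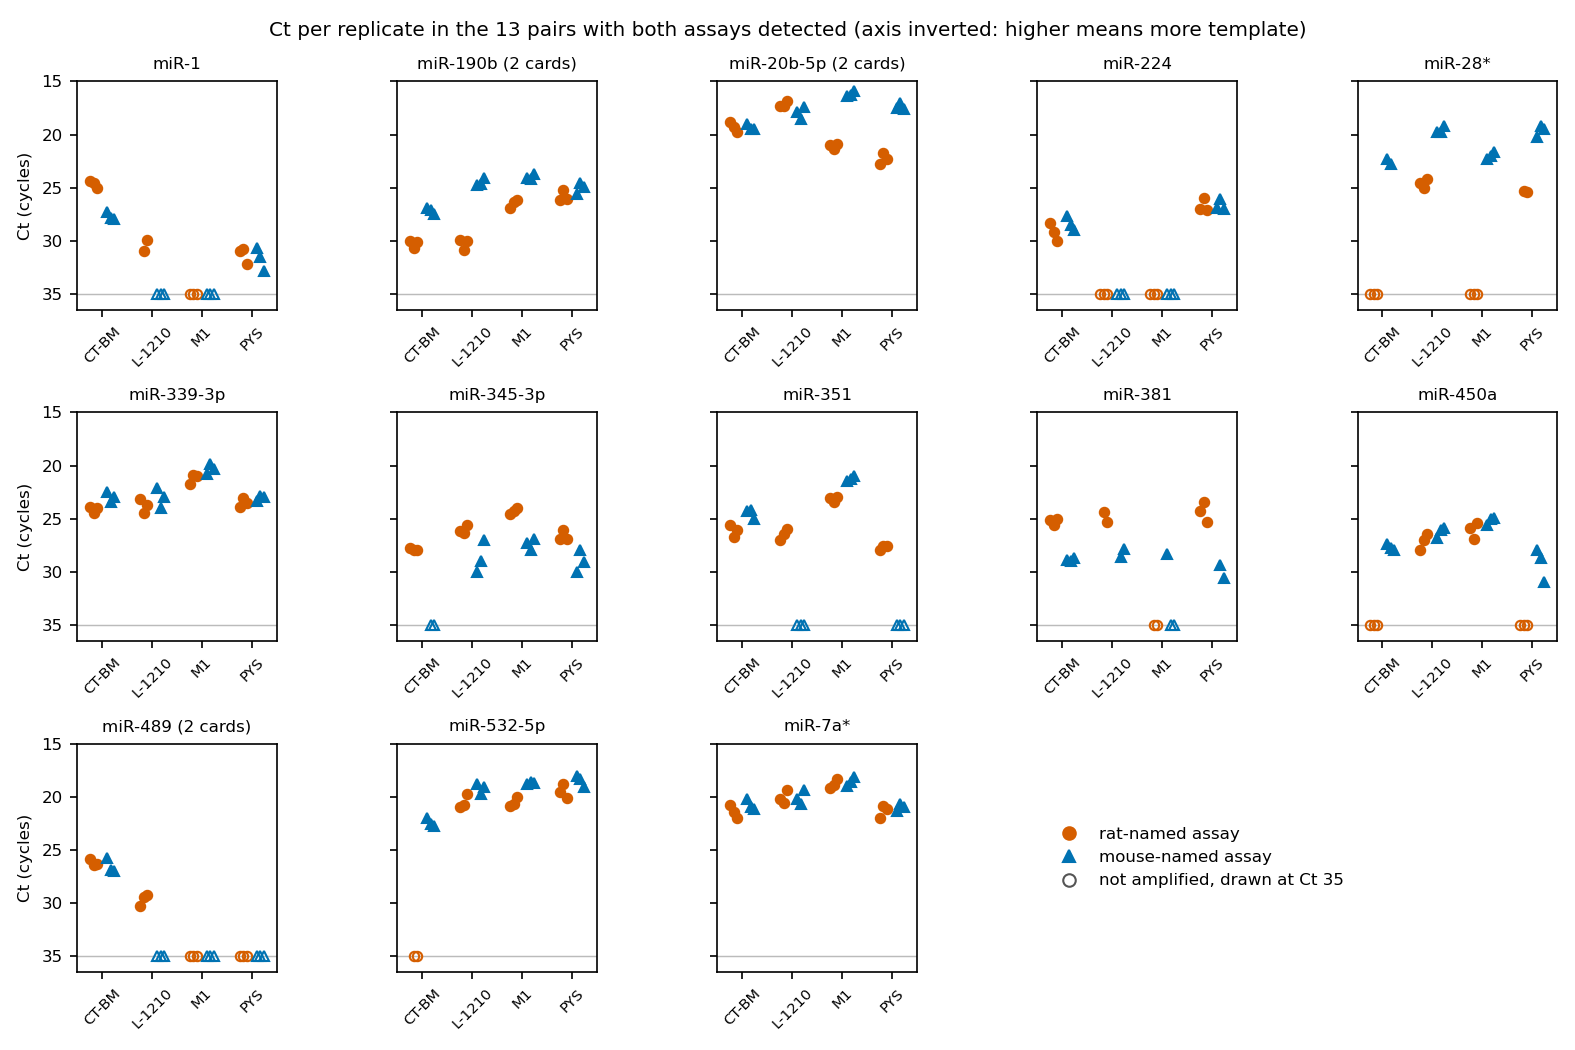
Ct in cycles (inverted axis, so higher points mean more template) of the rat-named assay (circles) and the mouse-named assay (triangles) in each replicate, for the 13 pairs with both assays detected. Open symbols at 35 are replicates without amplification, and "2 cards" marks pairs whose assays sit on different cards. The assays stay close in all groups for miR-339-3p and miR-7a*, part in M1 and PYS for miR-20b-5p, and are read in different groups for miR-351 and miR-28*.

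Among the 12 pairs tested, and over groups where both assays were detected, the level difference varied most for miR-20b, a member of the X-linked miR-106a-363 cluster, whose guide strands share the cell-cycle linked seed of miR-17. The rno-miR-20b-5p assay had Ct 18.8, 19.3 and 19.8 in CT-BM, 17.3, 17.3 and 16.8 in L-1210, then 21.0, 21.4 and 20.9 in M1 and 22.8, 21.7 and 22.3 in PYS. The mmu-miR-20b assay, on the other card, had 19.0, 19.5 and 19.5, then 17.9, 18.5 and 17.4, then 16.4, 16.3 and 15.9, and 17.5, 17.0 and 17.6. The replicate values of the assays lay close in CT-BM, and the rat-named assay had the lower Ct in each replicate of L-1210, before the references of each card were taken into account. In M1 and PYS the rat-named assay had by far the higher Ct, with no overlap.

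As a level difference, rno minus mmu, the miR-20b pair had -0.61 ± 0.20 (SD, n = 3) in CT-BM, -0.35 ± 0.18 in L-1210, then -5.01 ± 0.18 in M1 and -5.85 ± 0.31 in PYS. An exact permutation test of the difference over the 4 groups (two-sided by its F statistic, 12 replicates) gave p = 0.000195, and 0.00234 after Benjamini-Hochberg adjustment over the 12 pairs tested. Relative to CT-BM, the rno change minus the mmu change was -4.39 log2 units in M1 (95% interval -4.82 to -3.97) and -5.24 in PYS (-5.66 to -4.82). In L-1210 the interval ran from -0.16 to 0.69.

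Against CT-BM the assays of this pair were called in opposite directions in PYS. The rno assay was 18.4-fold lower (log2 -4.20 ± 0.22 SE, limma, adjusted p = 8.27e-10), and the mmu assay was 1.04 log2 units higher. In M1 the rno assay was 12.1-fold lower (limma, adjusted p = 7.08e-09), and the mmu assay, at 0.80 log2 units higher, did not reach the fold of 2. The mmu assays of the relatives shown with miR-20b gave 1.09 for miR-17, 1.23 for miR-20a and 1.05 for miR-106a in M1, and 0.86, 2.29 and 0.80 in PYS. Of other arms of the X-linked cluster, mmu-miR-106a was read in all 4 groups. Its mean Ct was 15.8 in CT-BM, 15.0 in L-1210, then 12.4 in M1 and 14.1 in PYS. The arms mmu-miR-20b* and mmu-miR-18b were read in L-1210 alone, the latter at 29.0, 28.0 and 27.2, while mmu-miR-363 was not detected in any group.

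The miR-190b pair also disagreed. The rno-miR-190b assay had Ct 30.0, 30.7 and 30.1 in CT-BM, 29.9, 30.9 and 30.0 in L-1210, then 26.9, 26.4 and 26.2 in M1 and 26.2, 25.2 and 26.1 in PYS. The mmu-miR-190b assay, on the other card, had 26.9, 27.1 and 27.5, then 24.8, 24.7 and 24.1, then 24.1, 24.2 and 23.7, and 25.6, 24.6 and 24.9. The rno assay thus separated M1 and PYS from CT-BM and L-1210, whereas the mmu assay separated CT-BM from all 3 lines.

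The level differences of the miR-190b pair were -2.42 ± 0.13 in CT-BM, -4.55 ± 0.27 in L-1210, then -2.41 ± 0.18 in M1 and 0.15 ± 0.15 in PYS (SD, n = 3). The exact permutation test gave p = 0.000649 and an adjusted p of 0.0039. CT-BM and M1 overlapped, with an interval of -0.35 to 0.37 for their difference, and all other group pairs did not. Against CT-BM the rno assay was 2.06-fold lower in L-1210, where the mmu assay was 2.13-fold higher. Leaving out replicate 3 of CT-BM or replicate 2 or 3 of L-1210 took that fall of the rno assay under 2-fold (log2 -0.93, -0.95 and -0.97). It changed sign with MammU6 alone as reference (0.70), with quantile normalization (2.48) and with the mean of the assays that all replicates share as reference, called the common mean below (0.08).

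The mouse cards also hold mmu-miR-190, the relative with the same seed. It had Ct 31.0, 30.9 and 31.4 in CT-BM, 28.0, 27.6 and 26.7 in M1 and 25.7, 25.0 and 25.9 in PYS, and was not detected in L-1210. Its changes against CT-BM were 1.27 log2 units in M1 and 4.57 in PYS, beside 1.39 and 3.47 for rno-miR-190b and 1.38 and 0.90 for mmu-miR-190b. By level, both rno-miR-190b and mmu-miR-190 were thus highest in PYS, then in M1, then in CT-BM. For rno-miR-190b, L-1210 came below CT-BM on the main scale, but the sign of that step changed under other settings, as given above. The mmu-miR-190 assay had no well for replicate 2 of L-1210, and its place there is only a bound.

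The other 2 pairs past the threshold differed little in size. The rno-miR-7a* assay had Ct 20.8, 21.5 and 22.0 in CT-BM, 20.2, 20.6 and 19.4 in L-1210, then 19.2, 18.9 and 18.3 in M1 and 22.0, 20.9 and 21.2 in PYS. The mmu-miR-7a* assay had 20.2, 21.0 and 21.2, then 20.2, 20.7 and 19.4, then 19.0, 18.6 and 18.2, and 21.4, 20.7 and 21.0. The group means of the level difference lay between -0.62 ± 0.11 in CT-BM and 0.00 ± 0.07 in L-1210, a range of 0.63 (exact permutation test, p = 0.00104, adjusted 0.00416). Both assays had lower Ct than mmu-miR-7a, the other arm, whose mean ran from 24.9 in PYS to 29.1 in CT-BM.

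The rno-miR-339-3p assay had Ct 23.9, 24.5 and 24.0 in CT-BM, 23.2, 24.5 and 23.7 in L-1210, then 21.7, 20.9 and 21.0 in M1 and 23.9, 23.1 and 23.5 in PYS. The mmu assay had 22.5, 23.4 and 23.0, then 22.1, 24.0 and 23.0, then 20.8, 19.9 and 20.3, and 23.3, 22.9 and 23.0. M1 had the lowest Ct by both assays. The level difference ran from -1.15 ± 0.17 in CT-BM to -0.43 ± 0.17 in PYS, a range of 0.72 (exact permutation test, p = 0.0161, adjusted 0.0483). Leaving out single replicates took the adjusted p over 0.05 in 9 of 12 cases, with 0.156 as the highest value, without replicate 2 of PYS.

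Among the 5 pairs read in the same groups by both assays, the miR-224 pair alone was missing from whole groups. This miRNA was read in CT-BM and PYS by both assays and in neither leukaemia line. The rno-miR-224 assay had Ct 28.3, 29.2 and 30.0 in CT-BM and 27.0, 26.0 and 27.1 in PYS, and the mmu assay had 27.7, 28.5 and 29.0, and 26.9, 26.1 and 27.0. The level difference was -0.76 ± 0.23 in CT-BM and -0.06 ± 0.09 in PYS. With 3 replicates against 3 the exact permutation test cannot go below 0.1, which was its value here.

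**Figure D3:**
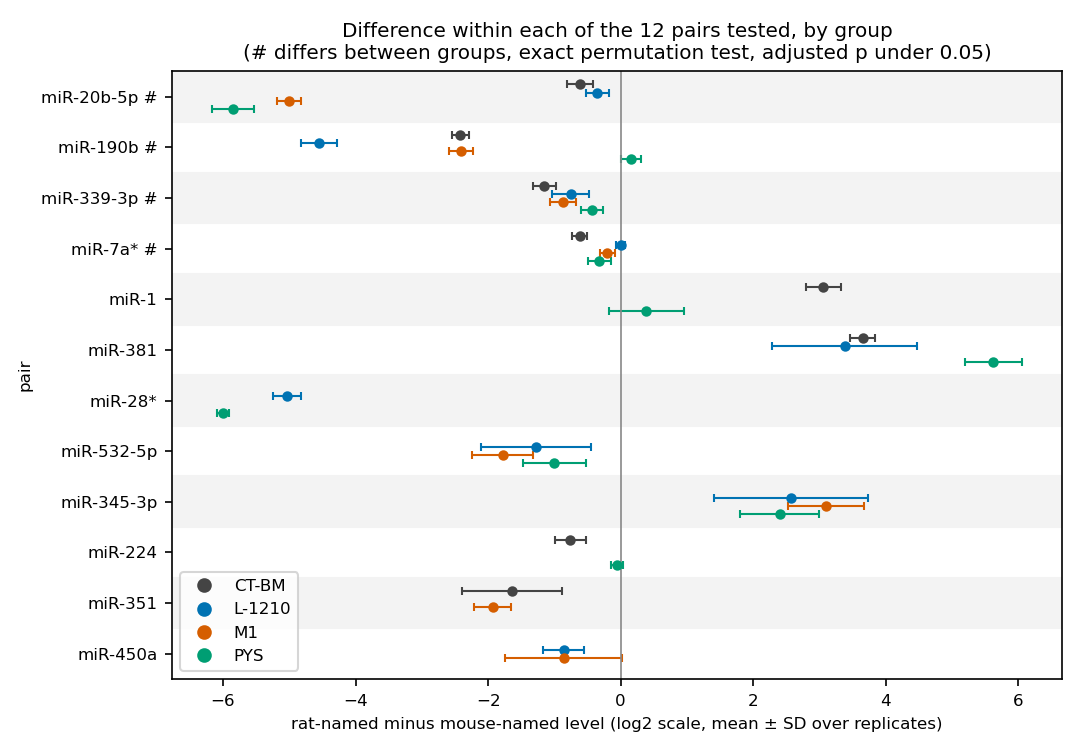
Level of the rat-named assay minus that of the mouse-named assay (log2 scale, horizontal axis) for the 12 pairs tested, as the mean with SD over the replicates of each group in which both assays were detected. The 4 pairs marked # differed between groups. The miR-20b-5p pair spans 5.50 and miR-190b 4.70 log2 units, against 0.72 for miR-339-3p and 0.63 for miR-7a*. Of the pairs tested, only miR-20b-5p and miR-190b have their assays on different cards, and the part of the card was not tested.

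Of the 12 pairs tested, the rno level lay below the mmu level in every group measured in 7, and above it in 3 (miR-1, miR-345-3p and miR-381). Among the 8 pairs that did not pass, 5 had only 2 groups and could not reach the threshold. A p over the threshold does not show that such assays act alike. For miR-351 the interval of the difference between M1 and CT-BM was -1.58 to 0.99, and for miR-450a between M1 and L-1210 it was -1.51 to 1.50.

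Several of these pairs were read by 1 assay in groups where the other was silent. The miR-351 hairpin lies in the X-linked cluster of miR-322 and miR-503. The rno-miR-351 assay had Ct 25.6, 26.7 and 26.1 in CT-BM, 27.0, 26.5 and 26.0 in L-1210, then 23.1, 23.4 and 23.0 in M1 and 28.0, 27.6 and 27.6 in PYS. The mmu-miR-351 assay had 24.3, 24.2 and 25.0 in CT-BM and 21.5, 21.3 and 21.0 in M1, and was not detected in L-1210 or PYS. Where both were read, the mmu assay had the lower Ct in every replicate, yet the rno assay alone gave a signal in the other groups.

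Neighbours of miR-351 and miRNAs with its seed were read in all 4 groups, with different orders of the groups. The mean Ct of mmu-miR-322 was 23.6 in CT-BM, 23.7 in L-1210, then 21.9 in M1 and 26.4 in PYS. In the same order, that of mmu-miR-503 was 21.8, 26.6, 24.2 and 26.5, with the lowest Ct in CT-BM and not in M1. By level, however, both were highest in CT-BM. The mean level of mmu-miR-322 was -8.83 in CT-BM and -9.47 in M1, and that of mmu-miR-503 was -7.02 and -11.74. Of the miRNAs with the seed of miR-351, mmu-miR-125b-5p had 23.8, 32.6, 32.9 and 27.1 and mmu-miR-125a-5p had 20.4, 30.8, 29.6 and 19.4.

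The miR-450a assays, from the same cluster, differed the other way. The rno-miR-450a assay had Ct 28.0, 27.0 and 26.5 in L-1210 and 25.9, 26.9 and 25.4 in M1, and was not detected in CT-BM or PYS. The mmu-miR-450a-5p assay was read in all groups, at 27.4, 27.8 and 28.0 in CT-BM, 26.8, 26.1 and 25.9 in L-1210, then 25.6, 25.0 and 24.9 in M1 and 28.0, 28.7 and 31.0 in PYS. In L-1210 and M1 the assays stood close, with a level difference of -0.86 ± 0.31 and -0.86 ± 0.88. In CT-BM the mmu assay was less than a cycle above some of its L-1210 values, and the rno assay was not detected in any of 3 replicates.

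The miR-532-5p pair, from an X-linked cluster with miR-188, miR-362 and miR-500, was also read by the mmu assay alone in bone marrow. The rno-miR-532-5p assay had Ct 21.0, 20.8 and 19.8 in L-1210, 20.9, 20.7 and 20.0 in M1 and, in PYS, 19.6, 18.8 and 20.1. It was not detected in replicates 2 and 3 of CT-BM, with no well for replicate 1. The mmu-miR-532-5p assay had 22.0, 22.6 and 22.8 in CT-BM, 18.8, 19.8 and 19.1 in L-1210, then 18.8, 18.6 and 18.7 in M1 and 18.1, 18.3 and 19.1 in PYS. Both assays called the lines higher than CT-BM. The size was at least 10386-fold, 4019-fold and 21813-fold for rno in L-1210, M1 and PYS (limma, adjusted p = 2.52e-12, 5.06e-12 and 5.76e-13). For mmu it was 2.21, 1.35 and 3.00 log2 units. In the lines the level differences of the pair overlapped, at -1.27 ± 0.83, -1.78 ± 0.46 and -1.0 ± 0.48.

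For miR-28* the rno assay was silent in 2 of the groups that the mmu assay read. The mmu-miR-28* assay was read in all groups, with mean Ct 22.6 in CT-BM, 19.6 in L-1210, then 22.0 in M1 and 19.6 in PYS. The rno-miR-28* assay had 24.6, 25.0 and 24.2 in L-1210 and 25.3 and 25.4 in replicates 2 and 3 of PYS, with no well for replicate 1, and was not detected in CT-BM or M1. The groups read by the rno assay were those with the lower Ct by the mmu assay. The level difference was -5.04 ± 0.21 in L-1210 (n = 3) and -6.00 ± 0.09 in PYS (n = 2).

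For 3 pairs the rat-named assay had the higher level in every group where both were read. The rno-miR-345-3p assay had Ct 27.8, 28.0 and 28.0 in CT-BM, 26.2, 26.4 and 25.6 in L-1210, then 24.6, 24.3 and 24.0 in M1 and 26.9, 26.1 and 26.9 in PYS. The mmu-miR-345-3p assay was not detected in CT-BM, with no well for replicate 1, and had 30.0, 29.0 and 27.0, then 27.3, 28.0 and 26.9, and 30.0, 28.0 and 29.1 in the lines. The rno assay was thus above the mmu assay by 2.57 ± 1.16, 3.10 ± 0.58 and 2.40 ± 0.60 log2 units. Against CT-BM the mmu assay gave rises of at least 4.88 log2 units in all 3 lines, where the rno assay, read on both sides, gave 0.83, 1.27 and 0.34.

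The second was miR-381 of the Dlk1-Dio3 locus. The rno-miR-381 assay had Ct 25.1, 25.6 and 25.0 in CT-BM, 24.4 and 25.3 in replicates 2 and 3 of L-1210 and 24.3, 23.4 and 25.3 in PYS. It was not detected in M1, with no well for replicate 1. The mmu-miR-381 assay had 28.9, 29.0 and 28.7 in CT-BM, 28.6 and 27.9 in L-1210, 29.4 and 30.6 in PYS and 28.3 in replicate 1 of M1, with no amplification in the other M1 replicates. The rno assay lay above the mmu assay by 3.65 ± 0.19 in CT-BM, 3.38 ± 1.09 in L-1210 (n = 2) and 5.62 ± 0.43 in PYS (n = 2). The exact permutation test of these differences gave p = 0.0762, adjusted 0.15.

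The third was miR-1, a muscle miRNA. The rno-miR-1 assay had Ct 24.4, 24.6 and 25.0 in CT-BM, 31.0 and 29.9 in replicates 2 and 3 of L-1210 and 31.0, 30.8 and 32.2 in PYS, and was not detected in M1. The mmu-miR-1 assay had 27.3, 27.9 and 28.0 in CT-BM and 30.7, 31.5 and 32.9 in PYS, and was not detected in either leukaemia line. CT-BM stood apart from all lines by both assays. The rno assay lay 3.06 ± 0.26 above the mmu assay in CT-BM and 0.39 ± 0.57 above it in PYS, without overlap (exact permutation test, p = 0.1, the smallest that 3 against 3 allows). The other muscle markers moved with it. The mean Ct of mmu-miR-133a was 18.8 in CT-BM, 27.9 in L-1210 and 28.3 in PYS, with no detection in M1, and that of mmu-miR-206 was 27.6 in CT-BM and 29.7 to 31.3 in the lines. The part of muscle RNA in the CT-BM level of miR-1 was not tested.

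The miR-489 pair ended with the rno assay read in 1 more group. The rno-miR-489 assay had Ct 25.9, 26.5 and 26.4 in CT-BM and 30.3, 29.5 and 29.3 in L-1210, and the mmu assay had 25.8, 26.9 and 27.0 in CT-BM and was not detected in L-1210. Neither was detected in M1 or PYS. In CT-BM the replicate values of the assays overlapped.

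In each line most rat-named assays tested against CT-BM were called, as were most of all miRNA assays. In L-1210, 16 of 25 rno assays tested were called, beside 68.2% of all assays, with 6 higher (22.5% of all) and 10 lower (45.6% of all). In M1, 21 of 24 were called, beside 69.5%, with 10 higher (25.2%) and 11 lower (44.3%). In PYS, 20 of 25 were called, beside 78.5%, with 10 higher (39.8%) and 10 lower (38.7%). The median log2 change of the rno assays tested was -0.67, 0.58 and -0.31, beside -0.82, -0.59 and 0.08 over all assays tested. The replicate levels of the groups did not overlap for 19 rno assays in L-1210 (79.3% of all), 23 in M1 (79.7%) and 20 in PYS (89.5%). These comparisons share the CT-BM replicates.

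A call needs a limma adjusted p under 0.05 and a fold of at least 2, and bounds against a group without detection made up 9, 13 and 9 of these counts. The split between higher and lower moved with the reference. In L-1210 it was 12 and 7 with MammU6 alone or quantile normalization, 9 and 7 with the common mean and 6 and 16 with snoRNA202 alone. In M1 it was 13 and 9 with quantile normalization. In PYS it was 14 and 6 with MammU6 alone and 7 and 12 with snoRNA135 alone. The median of all assays tested moved from -0.82 to 1.05 in L-1210, from -0.59 to 0.61 in M1 and from 0.08 to 1.84 in PYS at the most upward of these settings, and to -2.47, -1.03 and -0.84 at the most downward.

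**Figure D4:**
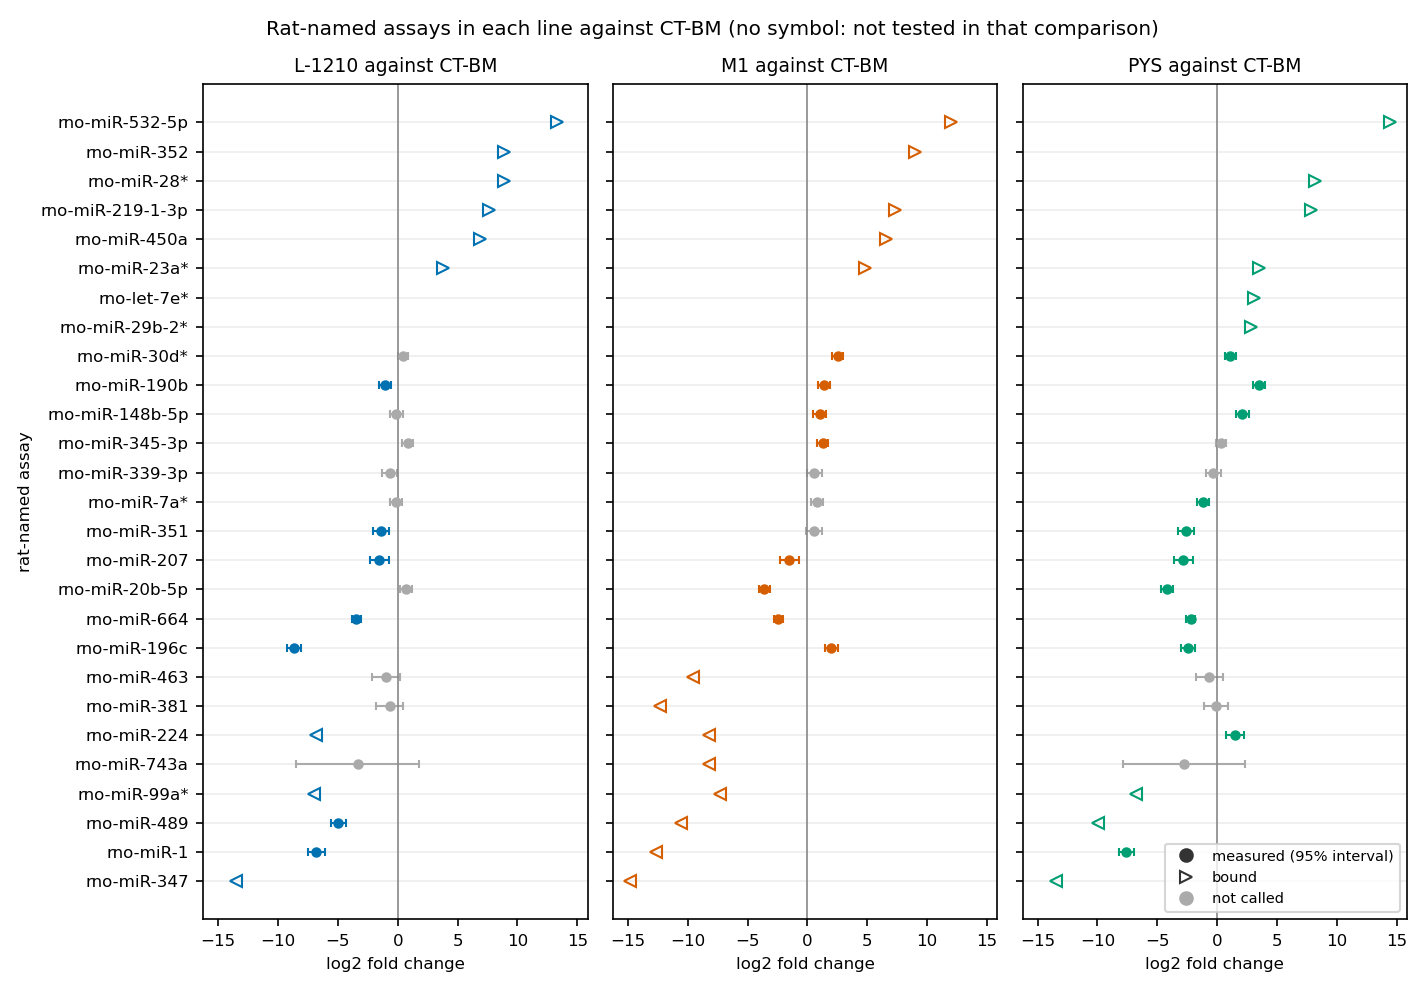
Log2 fold change of the rat-named assays in L-1210, M1 and PYS against CT-BM, with 95% intervals. Open triangles are lower bounds against a group without detection, and grey symbols were not called. Symbols for rno-miR-664 and rno-miR-207 lie left of 0 in all panels, rno-miR-196c lies left of 0 in L-1210 and PYS and right of 0 in M1, and rno-miR-532-5p is a bound on the right in all panels.

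Lower in all 3 lines were 6 of 27 rat-named assays tested, rno-miR-664, rno-miR-207, rno-miR-1, rno-miR-489, rno-miR-347 and rno-miR-99a*. In single lines, 45.6% (L-1210), 44.3% (M1) and 38.7% (PYS) of all assays tested were called lower. The shares of all assays that were lower in all 3 lines, higher in all 3 or called both ways were not counted. The rno-miR-664 assay had Ct 20.5, 20.6 and 21.0 in CT-BM, 22.9, 22.9 and 22.1 in L-1210, then 21.5, 21.6 and 20.9 in M1 and 22.1, 21.4 and 21.5 in PYS. The level was lower by folds of 11.1, 5.48 and 4.66 in L-1210, M1 and PYS (limma, adjusted p = 1.01e-09, 3.41e-08 and 7.79e-08), and the call in PYS was lost with MammU6 alone (log2 -0.20). By level, CT-BM was highest with no overlap. The rno-miR-1 level was 111-fold lower in L-1210, at least 6566-fold lower in M1 and 192-fold lower in PYS. The rno-miR-489 level was 31.6-fold lower in L-1210.

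Several of these falls were bounds. The rno-miR-489 level was at least 1505-fold lower in M1 and at least 1007-fold lower in PYS. The rno-miR-347 level was at least 11874-fold, 28371-fold and 11382-fold lower in L-1210, M1 and PYS, with only 2 replicates in CT-BM. For rno-miR-99a*, a passenger strand, the bounds were 130.0-fold, 159-fold and 107-fold. Markers of other marrow cells also stood higher in CT-BM. Both erythroid miRNAs were detected there, at mean Ct 20.8 to 24.8, against 0 of 2 in L-1210 and M1 and 1 of 2 in PYS. All 4 mesenchymal miRNAs were detected in CT-BM, at 21.2 to 24.7, against 1 in L-1210 and 2 in both M1 and PYS, and mmu-miR-143 and mmu-miR-214 were not detected in any line. The part of such cells in these results was not tested.

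The log2 change of rno-miR-207 in L-1210, M1 and PYS was -1.53 ± 0.37 (SE), -1.50 ± 0.37 and -2.82 ± 0.37 (limma, adjusted p = 0.00235, 0.00268 and 9.82e-06). In L-1210 it changed sign with MammU6 alone (0.22) and lost its call with the common mean (-0.40) or quantile normalization (-0.92). In M1 it lost its call under these last settings too (-0.94 and -0.66). The raw Ct in L-1210 overlapped that in CT-BM at 19.9.

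Higher in all 3 lines were rno-miR-532-5p, given above, rno-miR-219-1-3p and rno-miR-23a*, each not detected in CT-BM. The rno-miR-219-1-3p assay, for a passenger arm of the brain miRNA miR-219, had Ct 26.4, 27.0 and 25.6 in L-1210, 25.5, 25.5 and 25.0 in M1 and 26.3, 26.0 and 26.3 in PYS. The bounds were 200.0-fold, 160.0-fold and 232-fold. The rno-miR-23a* assay had 28.3, 29.7 and 31.0 in L-1210, 27.5, 28.7 and 29.0 in M1 and 31.8, 30.3 and 28.7 in PYS, the widest spread among rno assays read in every replicate of a group. Its bounds of 14.0-fold, 27.5-fold and 11.1-fold lost their calls at a Ct limit of 32.

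Other bounds against CT-BM were called in part of the lines. The rno-miR-352 assay had Ct 24.4, 24.0 and 25.0 in L-1210 and 24.0, 24.7 and 23.7 in M1, at least 477-fold and 498-fold above CT-BM, where replicate 2 had no well. It was not detected in PYS. The rno-miR-28* level was at least 457-fold higher in L-1210 and at least 8.22 log2 units higher in PYS, and the rno-miR-450a level at least 115-fold higher in L-1210 and 95.8-fold higher in M1. In PYS the bounds for rno-let-7e* and rno-miR-29b-2* were 8.27-fold and 7.21-fold, and the latter changed sign at a Ct limit of 32 (log2 -0.15).

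In the opposite direction, M1 lacked rno-miR-381 and rno-miR-463, which L-1210 and PYS had. The rno-miR-381 level was at least 5180-fold lower and the rno-miR-463 level at least 775-fold lower in M1 than in CT-BM. In L-1210 and PYS these assays were not called, with log2 changes of -0.67 and -0.08 for rno-miR-381 and -1.0 and -0.64 for rno-miR-463. The rno-miR-224 level was at least 115-fold lower in L-1210 and at least 294-fold lower in M1, and 2.81-fold higher in PYS, a call lost with snoRNA135 alone (log2 0.57) or snoRNA202 alone (0.90). The rno-miR-743a level was lower in M1 than in CT-BM, as a bound (log2 -8.23), a call lost with quantile normalization (-4.78).

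In all, 3 members were called in both directions in different lines, rno-miR-196c, rno-miR-190b and rno-miR-224. The miR-196 genes lie within the Hox clusters. The rno-miR-196c assay had Ct 21.1, 21.7 and 21.5 in CT-BM, 28.5, 30.0 and 28.8 in L-1210, then 17.5, 16.7 and 17.0 in M1 and 23.3, 22.5 and 23.0 in PYS, so that no groups overlapped. The M1 value of 16.7 was the lowest Ct of any rno assay. The level was 405-fold lower in L-1210, 4.04-fold higher in M1 and 5.40-fold lower in PYS (limma, adjusted p = 6.32e-12, 1.53e-05 and 1.64e-06), and the PYS call was lost with MammU6 alone (log2 -0.92).

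The cards hold no mmu-miR-196c assay, but mmu-miR-196b showed the same order of groups. Its mean Ct was 21.4 in CT-BM, 32.7 in L-1210, then 17.4 in M1 and 24.2 in PYS, beside 21.4, 29.1, 17.1 and 22.9 for rno-miR-196c. Its log2 changes were -12.30, 1.66 and -3.75, beside -8.66, 2.01 and -2.43. The mouse miR-196b arm at chr6:52230129-52230150 and the miR-196a arm at chr11:96265187-96265208 differ at 1 base, C12A.
mmu-miR-196b-5p: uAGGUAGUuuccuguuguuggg
mmu-miR-196a-5p: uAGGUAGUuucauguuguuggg

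The remaining rises were moderate. The rno-miR-30d* assay had Ct 25.8, 26.0 and 27.0 in CT-BM, 24.9, 24.1 and 23.9 in L-1210, then 22.1, 22.2 and 21.4 in M1 and 24.3, 23.9 and 23.6 in PYS. Its level was 5.80-fold higher in M1 (limma, adjusted p = 1.69e-07) and 2.11-fold higher in PYS, where the call was lost without replicate 3 of CT-BM (log2 0.97) or with snoRNA202 alone (0.23), and the sign changed with snoRNA135 alone (-0.10). The rno-miR-148b-5p assay, a passenger arm, had 27.4, 27.0 and 28.5 in CT-BM, 26.8, 26.1 and 25.9 in L-1210, then 25.0, 25.1 and 24.3 in M1 and 24.5, 24.3 and 24.0 in PYS. Its level was 4.35-fold higher in PYS (limma, adjusted p = 4.49e-06), a call lost with snoRNA135 alone (0.94). Its 2.03-fold rise in M1 fell under 2-fold without replicate 1 or 3 of CT-BM or replicate 3 of M1, down to a log2 change of 0.84, and with snoRNA135 alone (0.75) or snoRNA202 alone (0.25).

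The rise of rno-miR-345-3p was called in M1 alone, at 2.42-fold (limma, adjusted p = 7.99e-05), and was lost with snoRNA202 alone (log2 0.95). The falls of rno-miR-351 were 2.61-fold in L-1210 and 5.90-fold in PYS (limma, adjusted p = 0.00133 and 4.57e-06). The first changed sign with MammU6 alone (0.36) and was lost with the common mean (-0.26) or quantile normalization (-0.22). The second was lost with MammU6 alone (-1.05). For rno-miR-7a* the fall of 2.24-fold in PYS changed sign with MammU6 alone (0.86). The rno-miR-339-3p assay was called in no line.

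In each line, more pairs had the same call, or none by both assays, than had different calls. How often unrelated assays give the same call was not counted, and most of all assays were called. Bounds count as calls here, as for miR-351 in L-1210, with log2 -1.38 for rno and a bound of -11.52 for mmu. In L-1210 against CT-BM, 9 of the pairs with both assays tested had the same call or both none, 3 had a call by 1 assay and 1 had opposite calls. In M1 these counts were 10, 2 and 0, and in PYS 7, 4 and 1. The opposite calls were those of miR-190b in L-1210 and miR-20b-5p in PYS. The pairs with a call by 1 assay were miR-339-3p, miR-345-3p and miR-450a in L-1210, miR-20b-5p and miR-450a in M1, and miR-190b, miR-224, miR-339-3p and miR-345-3p in PYS.

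Between the leukaemia lines, L-1210 against M1, 14 of 21 rno assays were called, beside 56.2% of all assays, with 7 higher (25.3% of all) and 7 lower (30.9% of all) in L-1210. The replicate levels of 16 did not overlap (69.4% of all). The split was 11 and 2 with MammU6 alone, 6 and 13 with snoRNA202 alone and 7 and 4 with the common mean. The largest measured difference was that of rno-miR-196c, 1636-fold lower in L-1210 (limma, adjusted p = 7.71e-13). The rno-miR-20b-5p level was 19.4-fold higher in L-1210 (limma, adjusted p = 1.26e-09), and rno-miR-532-5p 2.58-fold higher, a call lost with snoRNA202 alone (log2 0.05). The rno-miR-190b level was 5.40-fold lower and rno-miR-30d* 4.29-fold lower, and the former was lost with MammU6 alone (-0.88).

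The other calls between these lines were bounds or small. Higher in L-1210 by bounds were rno-miR-381 (at least 3266-fold), rno-miR-28* (1616-fold), rno-miR-463 (386-fold), rno-miR-1 (59.4-fold) and rno-miR-489 (47.7-fold). Lower in L-1210 were rno-miR-351 (3.90-fold), rno-miR-339-3p (2.36-fold), rno-miR-148b-5p (2.20-fold) and rno-miR-664 (2.03-fold), and all 4 lost their calls or changed sign with MammU6 alone. The sign changed for rno-miR-339-3p (log2 0.32). The rno-miR-664 call was also lost without replicate 2 of L-1210 (-0.99) or replicate 3 of M1 (-0.98).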

How the data were processed

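Total RNA of 12 replicates was, per the labels, extracted with a mirVana kit, reverse transcribed, preamplified and run on rodent TaqMan cards A and B for 40 cycles on a 7900HT instrument. Each replicate title stands on 2 of the 24 samples, 1 per card. The authors deposited 1 table with 2 values per well, named in the file headers as Ct and Ct Avg. These scores are PCR cycles, not normalized to the reference RNAs. In 3543 of 3543 checks Ct Avg equalled, within 0.001 cycles, the average Ct of the assay's wells. The software and a detection limit were not given in the sources used here. Of 8969 wells, 4334 were undetermined, and 0 value columns were left unused.

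Wells of an assay were averaged, and undetermined wells and a Ct over 35 were set to 35. Of 268 combinations of rno assay and group, 254 had 3 replicates and 14 had 2. Levels (negative delta Ct) of all 584 miRNA assays went into 1 linear model with a mean for each of 4 groups (lmFit, then eBayes, from limma 3.58.1, R 4.3.3). Benjamini-Hochberg adjustment ran per comparison over assays that 1 of its groups had in every replicate. Calls needed an adjusted p under 0.05 and a 2-fold change. Where a group had no detection, the Ct limit stood in and the fold is a lower bound. The level of such a group varied only with the reference RNAs, and the direction by Ct was fixed in advance. Pairs were compared on the replicate differences of their levels by exact permutation, adjusted over 12 pairs. Their intervals came from the t distribution (SciPy 1.17.1). The fit and the pair test were tested on simulated data. Python 3.11.15, pandas 2.3.3, numpy 2.4.6 and matplotlib 3.10.9 were used. Sequences were read from RefSeq by name.

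The members, pairs, lists and relatives were chosen with earlier results of these data known. Values are given by replicate for pairs with a detected assay, for the 5 largest measured changes and 3 largest bounds each way against CT-BM, for assays read in 1 group and for the 5 highest levels. Other mmu assays were chosen as relatives or neighbours, and since few detected members were left, all 27 are given. Alternatives were single reference RNAs, the common mean (over assays that all 12 replicates share), Ct limits of 32 and 40, quantile normalization, other filters, fits, fold minimum and cards, replicate number as a block, leaving out each replicate and, added after seeing the data, snoRNA135 with snoRNA202.

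Replicate numbers were checked for pairing across groups. Deviations of same-numbered replicates correlated from -0.453 to 0.334 over 187 assays, with 3 of 18 correlations over 0.1, so the numbers were not taken as pairs.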

Additional observations from a re-analysis of the deposited data

Results flagged for a closer look

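The difference between the rno and the mmu level was not the same in all groups for 4 pairs by the exact permutation test over 12 replicates, with an adjusted p of 0.00234 for miR-20b-5p, 0.0039 for miR-190b, 0.00416 for miR-7a* and 0.0483 for miR-339-3p. The range of the group means was 5.50, 4.70, 0.63 and 0.72 log2 units in the same order. Of all pairs tested, only miR-20b-5p and miR-190b have their assays on different cards, and the part of the card was not tested.

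For 3 members the change against CT-BM was called in opposite directions in different lines, and the direct difference between those lines passed the limma threshold. The rno-miR-196c level differed by -10.68 log2 units between L-1210 and M1 and by -4.45 between PYS and M1. The rno-miR-190b level differed by -2.43 between L-1210 and M1 and by 4.52 between PYS and L-1210, while the sign of its L-1210 change against CT-BM depended on the reference. The rno-miR-224 level differed by at least 8.34 between PYS and L-1210 and by at least 9.69 between PYS and M1, both bounds.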

How the results depend on the processing

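With replicate number as a block, the counts of called rno assays were 16 in L-1210, 21 in M1, 20 in PYS and 14 for L-1210 against M1, as without it, 4 pairs passed as before, and no called member lost its call. Restricting the tests to assays detected in all replicates of both groups gave 7 (0 higher, 7 lower), 8 (5 and 3), 11 (4 and 7) and 9 (2 and 7), since bounds drop out. Under the other settings the totals stayed within 1.5 times, while their higher and lower parts did not (6 and 10 in L-1210 became 12 and 7 with MammU6 alone, and 7 and 7 for L-1210 against M1 became 11 and 2).

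The sign changed for rno-miR-190b in L-1210 against CT-BM with MammU6 alone (0.70), quantile normalization (2.48) and the common mean (0.08). With MammU6 alone it also changed for rno-miR-207 (0.22) and rno-miR-351 (0.36) in L-1210, rno-miR-7a* in PYS (0.86) and rno-miR-339-3p in L-1210 against M1 (0.32). It changed for rno-miR-30d* in PYS with snoRNA135 alone (-0.10) and for rno-miR-29b-2* in PYS at a Ct limit of 32 (-0.15). The value of rno-miR-29b-2* is a bound, for which the limit stands in for CT-BM, so it moves with the limit. The other sign changes came with another reference or normalization, and their cause was not tested. Over all settings, the members' log2 changes that had been called kept sign and call in 1402 cases, lost the call in 44 and changed sign in 9. Calls gained are not in this tally, and the total in L-1210 rose from 16 to 19 with MammU6 alone or quantile normalization and to 22 with snoRNA202 alone. For the pairs, 180 values kept their side of the threshold and 9 did not, all for miR-339-3p with 1 replicate left out. The number of replicates limits the precision.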
